A study of Mus musculus with 9 samples.

Results

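The DEAD and DEAH box helicases are ATP-driven enzymes that unwind RNA duplexes and strip or rearrange proteins on RNA, and they take their name from a conserved stretch of amino acids in the ATP-binding core. Different members act at different steps in the life of RNA: many are nucleolar and remodel the precursors of ribosomal RNA, others drive the spliceosome, carry mRNA through the nuclear pore, or open structured leaders for translation. Members were taken as the probe sets with exactly 1 annotated symbol made of Ddx or Dhx and a number, with Ddx6, Ddx21, Ddx58 and Dhx58 left out. This gave 51 probe sets for 47 genes (32 Ddx and 15 Dhx) among 19938 named genes. Genes entered the tests when 3 or more arrays exceeded the 40th percentile of their probe sets, which kept 45 of the 47 helicase genes and 13182 genes in all.

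RNA came from mouse embryonic stem (ES) cells of genotype Dgcr8 -/-, which lack a subunit of the Microprocessor and so cannot make most of their own microRNAs. All cells were kept without leukaemia inhibitory factor (LIF) and were harvested 12 h after transfection with 50 nM let-7c mimic, with 50 nM miR-294 mimic, or after mock transfection, with 3 biological replicates and so 3 arrays in each group. The Dgcr8 deletion and the absence of LIF were shared by every group, mock included. The sample titles alone mark the mock arrays: the treatment protocol in the labels is the same mimic text for all 9 samples, so what the mock cells received is known only from the word mock. There was no control mimic, so effects of transfection with any RNA are part of the differences from mock, and the labels do not say whether the cells were 1 clone. Let-7 microRNAs are abundant in differentiated cells, while miR-294 is one of the main microRNAs of normal ES cells. The comparisons ask which transcripts each microRNA lowers or raises in cells that have almost no microRNAs of their own.

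The mature microRNAs are shown because the seed (bases 2 to 8, in capitals) is what pairs with target mRNAs, and the mimics do not share one. Sequences are from RefSeq (GRCm38.p6). The labels name miR-294 without an arm; the 3p arm, which carries the family's seed, is given, with another let-7 member and other microRNAs of the same seed as miR-294.
let-7c-5p: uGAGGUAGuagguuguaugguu
let-7a-5p: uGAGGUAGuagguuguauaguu
miR-294-3p: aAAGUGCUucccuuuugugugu
miR-291a-3p: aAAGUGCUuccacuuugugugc
miR-302b-3p: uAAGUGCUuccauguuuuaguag
Let-7c-5p is encoded on the plus strand at chr15:85706616-85706637 and again at chr16:77599672-77599693, and miR-294-3p on the plus strand at chr7:3220691-3220712.

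Values are log2 intensities of 1 probe set per gene, so each helicase is compared between groups and not with another helicase. A difference is the mean of one group minus that of the other on the log2 scale, ± its standard error. "Fell" and "rose" are used where limma's Benjamini-Hochberg adjusted p, over the 13182 genes, was under 0.05. Within a group the standard deviation (SD) of a tested helicase had a median of 0.06 in let-7c, 0.04 in miR-294 and 0.05 in mock arrays. Of the ES cell markers, 10 of 10 lay above the 40th percentile in every array. So did 4 of 5 neurectoderm, 4 of 6 trophoblast and 3 of 6 primitive endoderm markers, so this measure separates the cell types only in part. Of 8 feeder fibroblast markers, Postn, Lum, Dcn and Fap lay at or below the 40th percentile in every array of each group. The other 4 lay above it in every array. The mean of the feeder list per array was 6.40 to 6.69 with let-7c, 6.45 to 6.56 with miR-294 and 6.32 to 6.45 with mock. The mean of the ES cell markers was 11.70 to 11.71 per array with let-7c, 11.98 to 12.04 with miR-294 and 11.85 to 11.88 with mock. In single tests of these ES cell markers 5 of 10 fell with let-7c (50.0%, against 14.8% of all genes). With miR-294 5 of 10 rose (50.0%, against 20.7% of all genes), and the part of these markers in the helicase results was not tested. Of 4 tested feeder markers 0 passed with let-7c (median 0.05), while 1 rose with miR-294 (median 0.16, 3 of 4 positive). Of 3 tested primitive endoderm, 4 trophoblast and 4 neurectoderm markers, 1 of each list rose with let-7c, and 1 trophoblast and 1 neurectoderm marker fell; with miR-294 1 trophoblast marker rose and 1 neurectoderm marker fell. Lists of 3 or 4 tested markers are too short to set 1 call against the shares of all genes. In RNA from whole cultures, fewer cells of a type and less RNA per cell cannot be told apart.

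With let-7c, helicase genes were lower than mock or did not pass the threshold. Of 45 tested members, 17 fell (37.8%) and 0 rose, while among all tested genes 14.8% fell and 13.9% rose. The median difference of the members was -0.12, against 0.02 over all genes tested. At an unadjusted limma p under 0.05 the count was 24 lower and still 0 higher, against 19.6% lower and 20.6% higher among all genes. The splicing helicase gene Dhx8 fell most, to 0.60 of its mock level, followed by the ribosome biogenesis helicase genes Ddx54 and Ddx10. With miR-294 the picture was mixed. There 13 members rose (28.9%, against 20.7% of all genes) and 4 fell (8.89%, against 21.1% of all genes), with a median of 0.08, against 0.02 over all genes. The comparisons with mock share the 3 mock arrays.

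**Figure D1:**
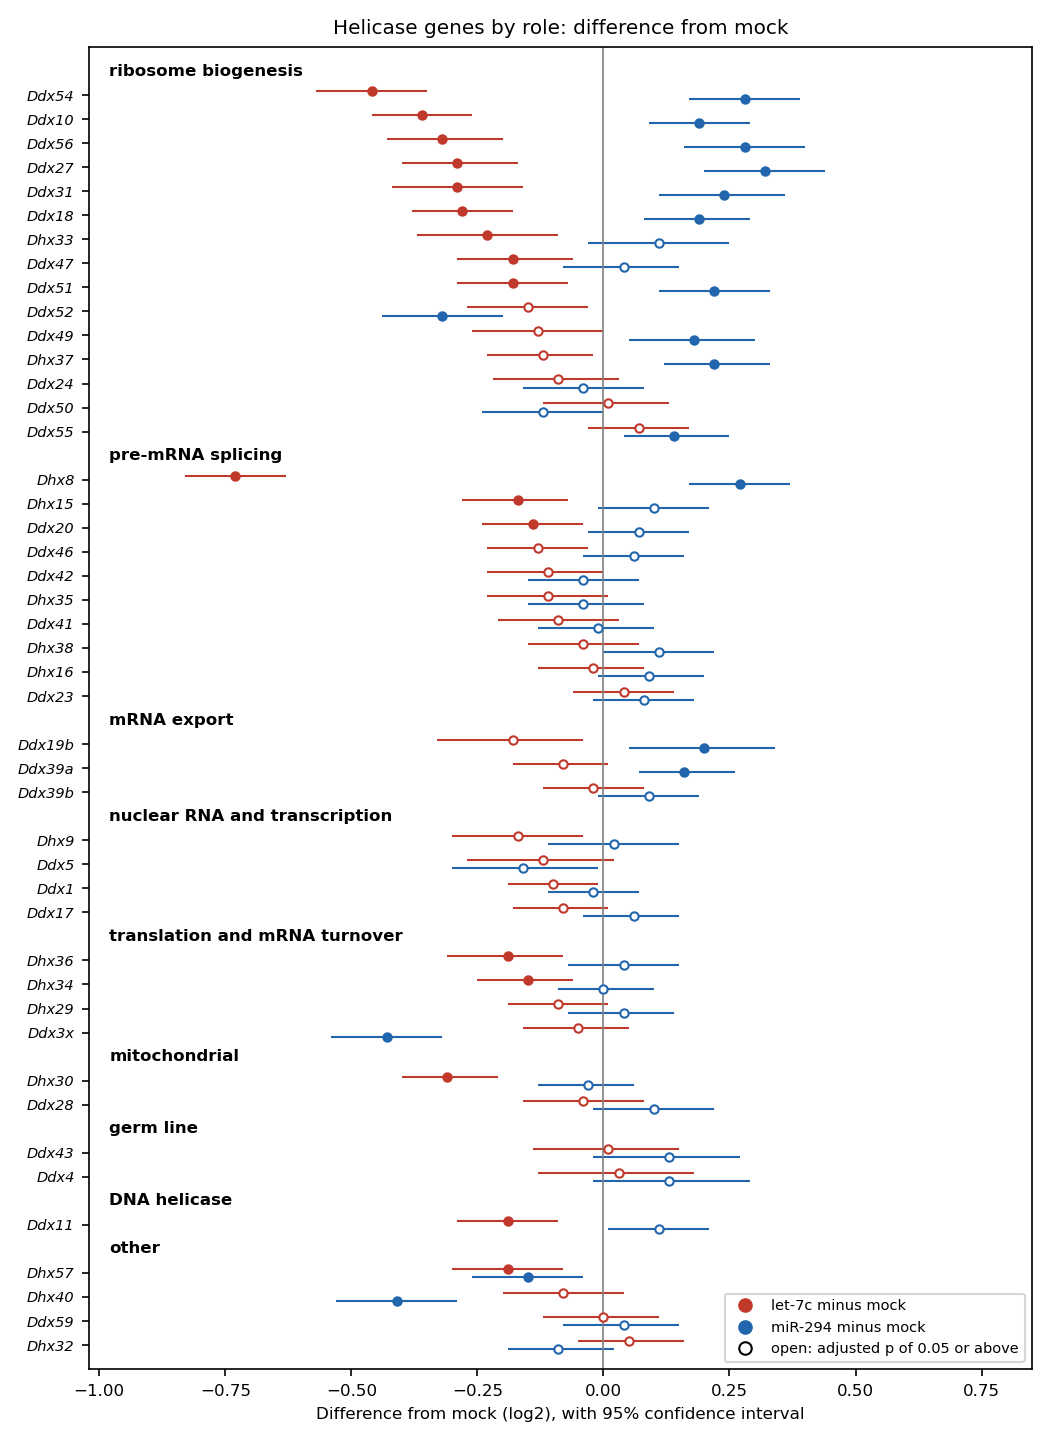
Differences from mock (horizontal axis, log2) with 95% confidence intervals for the 45 tested helicase genes, grouped by role down the page; red is let-7c minus mock, blue is miR-294 minus mock, and filled points have an adjusted p under 0.05. In the ribosome biogenesis group 9 of 15 red points are filled on the lower side and 10 of 15 blue points on the higher side, and Dhx8 has the red point farthest from 0 (-0.73).

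The helicases of ribosome biogenesis work in the nucleolus on the precursors of the small and the large ribosomal subunit. With let-7c 9 of the 15 tested genes of this role fell and 0 rose, with a median of -0.18 (14.8% of all genes fell). With miR-294 10 of 15 rose (66.7%, against 20.7% of all genes) and 1, Ddx52, fell (6.67%, against 21.1%), with a median of 0.19. The 30 tested helicase genes outside this role had 8 falls (26.7%, against 14.8% of all genes) and 0 rises with let-7c (median -0.10). With miR-294 they had 3 rises and 3 falls (median 0.05), both smaller shares than the 20.7% and 21.1% of all genes. The 8 falls became 4 without mock replicate 2, and 5 without mock replicate 3 or without either of let-7c replicates 1 and 3; the 3 rises became 6 with centring on the 75th percentile and 5 with quantile normalization or a trended prior. Whether the role groups differ was not tested, and the roles were assigned with earlier results of these data known.

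Ddx54, related to yeast Dbp10 of large subunit assembly, measured 9.95, 9.84 and 9.94 with let-7c, 10.70, 10.64 and 10.61 with miR-294, and 10.41, 10.39 and 10.30 with mock. The groups did not overlap: every let-7c array lay under every mock array, and every miR-294 array above. Ddx54 fell by 0.46 with let-7c (SE 0.05, adjusted p = 9.22e-05) and rose with miR-294 (0.28 ± 0.05, adjusted p = 0.000971). A second probe set annotated to Ddx54, chosen for inspection after the values were seen, was dim and did not follow with let-7c. It measured 7.50, 7.27 and 7.42 with let-7c, 7.58, 7.56 and 7.58 with miR-294, and 7.46, 7.22 and 7.36 with mock. Its difference from mock was 0.05 ± 0.07 with let-7c (adjusted p = 0.622) and 0.23 ± 0.07 with miR-294 (adjusted p = 0.024).

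Ddx10, a small subunit factor related to yeast Dbp4, measured 10.26, 10.28 and 10.22 with let-7c, 10.77, 10.86 and 10.78 with miR-294, and 10.58, 10.65 and 10.59 with mock. Again the groups were apart, with let-7c lowest and miR-294 highest. The difference from mock was -0.36 ± 0.04 with let-7c (adjusted p = 0.00021) and 0.19 ± 0.04 with miR-294 (adjusted p = 0.00524).

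Ddx56, a large subunit factor related to yeast Dbp9, measured 10.37, 10.34 and 10.49 with let-7c, 10.99, 11.07 and 10.94 with miR-294, and 10.71, 10.73 and 10.72 with mock. Its mock arrays lay close together and no group overlapped another. It fell with let-7c (-0.32 ± 0.05, adjusted p = 0.00125) and rose with miR-294 (0.28 ± 0.05, adjusted p = 0.0015).

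Ddx27, related to yeast Drs1 of large subunit assembly, had the largest rise with miR-294. It measured 10.15, 10.25 and 10.32 with let-7c, 10.83, 10.85 and 10.86 with miR-294, and 10.45, 10.56 and 10.56 with mock, in groups that did not overlap. The difference was -0.29 ± 0.05 with let-7c (adjusted p = 0.00243) and 0.32 ± 0.05 with miR-294 (adjusted p = 0.00063), or 1.25 times the mock level.

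Ddx31, related to yeast Dbp7, measured 8.18, 8.27 and 8.33 with let-7c, 8.72, 8.87 and 8.75 with miR-294, and 8.50, 8.62 and 8.52 with mock. These groups were apart as well, at -0.29 ± 0.06 with let-7c (adjusted p = 0.00369) and 0.24 ± 0.06 with miR-294 (adjusted p = 0.00711). Dhx37, a DEAH box helicase of small subunit maturation, measured 9.72, 9.71 and 9.69 with let-7c, 10.03, 10.09 and 10.03 with miR-294, and 9.87, 9.87 and 9.74 with mock. It rose with miR-294 (0.22 ± 0.05, adjusted p = 0.00343), and with let-7c its difference was -0.12 ± 0.05 (adjusted p = 0.0811).

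The large subunit helicase gene Ddx18, related to yeast Has1, fell with let-7c (-0.28 ± 0.05, adjusted p = 0.00102) and rose with miR-294 (0.19 ± 0.05, adjusted p = 0.00737). Its second probe set differed from mock by -0.10 ± 0.04 with let-7c (adjusted p = 0.0822) and by 0.28 ± 0.04 with miR-294 (adjusted p = 0.000333), so the let-7c call rests on the brighter probe set. Ddx51 also fell with let-7c (-0.18) and rose with miR-294 (0.22). Dhx33, a nucleolar DEAH box helicase, and Ddx47, related to yeast Rrp3, fell with let-7c (-0.23 and -0.18); with miR-294 their differences were 0.11 (adjusted p = 0.188) and 0.04 (adjusted p = 0.604). Ddx49 (0.18) and Ddx55 (0.14) rose with miR-294.

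Ddx52, related to yeast Rok1 of small subunit assembly, was the one member of its role that fell with miR-294. It measured 9.78, 9.96 and 9.88 with let-7c, 9.67, 9.77 and 9.67 with miR-294, and 9.98, 10.07 and 10.02 with mock. Every miR-294 array lay below every let-7c and mock array, and Ddx52 fell by 0.32 with miR-294 (SE 0.06, adjusted p = 0.000895). With let-7c its difference was -0.15 ± 0.06 (adjusted p = 0.0631), which passed with the replicate number as a block (adjusted p = 0.0184). Ddx24 (-0.09 with let-7c and -0.04 with miR-294) and Ddx50, a close relative of Ddx21 (0.01 and -0.12), did not pass the threshold against mock.

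**Figure D2:**
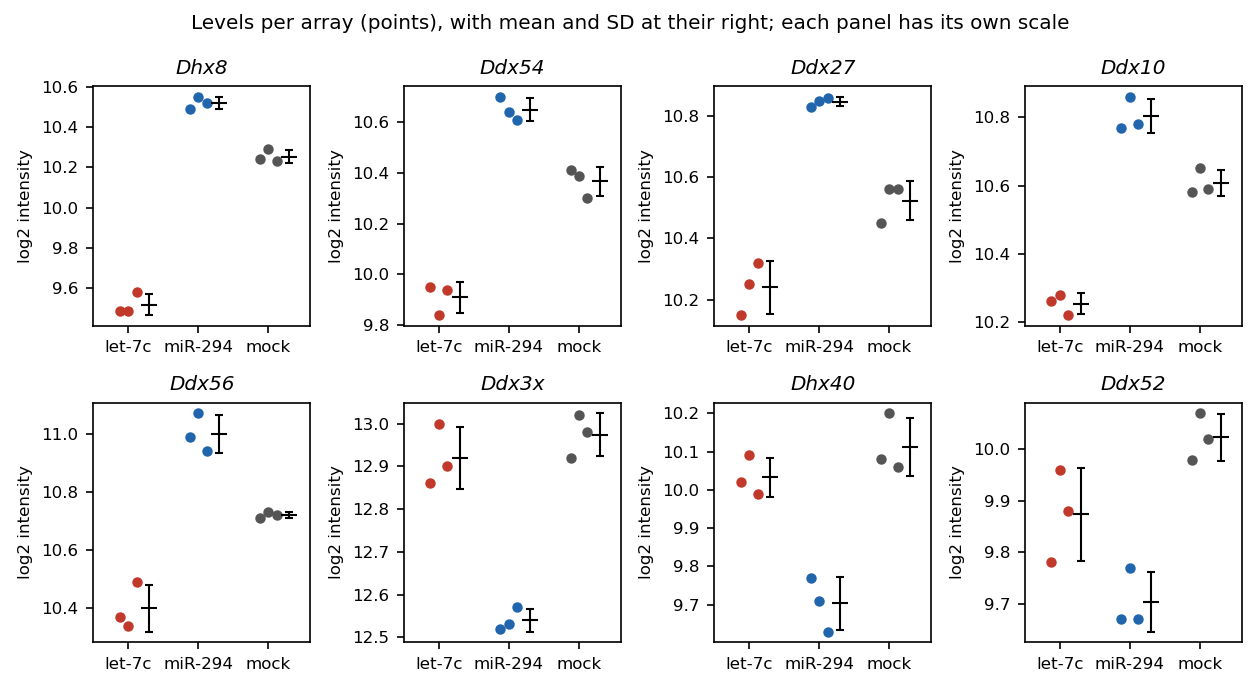
Log2 intensity (vertical axis, scaled for each gene) in each array of the let-7c, miR-294 and mock groups, with the mean and SD of 3 arrays beside the points, for 8 helicase genes with large differences. In Dhx8, Ddx54, Ddx27, Ddx10 and Ddx56 the let-7c arrays lie below and the miR-294 arrays above mock; in Ddx3x, Dhx40 and Ddx52 the miR-294 arrays lie lowest.

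Among the 10 tested helicases of pre-mRNA splicing and spliceosome supply, 3 fell with let-7c (30.0%, against 14.8% of all genes), with a median of -0.11. With miR-294 1 of the 10 rose and 0 fell (median 0.07), both smaller shares than the 20.7% and 21.1% of all genes. The largest difference in this role was that of Dhx8, related to yeast Prp22, which releases the spliced mRNA from the spliceosome. Dhx8 measured 9.49, 9.49 and 9.58 with let-7c, 10.49, 10.55 and 10.52 with miR-294, and 10.24, 10.29 and 10.23 with mock. The groups were far apart, each array of one clear of every array of another. The fall with let-7c was -0.73 ± 0.04 (adjusted p = 2.3e-06) and the rise with miR-294 0.27 ± 0.04 (adjusted p = 0.000653), or 1.20 times the mock level.

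Dhx15, related to yeast Prp43, which takes spent spliceosomes apart, measured 11.75, 11.88 and 11.83 with let-7c, 12.06, 12.13 and 12.09 with miR-294, and 11.94, 12.02 and 12.03 with mock. It fell with let-7c (-0.17 ± 0.05, adjusted p = 0.022), and with miR-294 its difference was 0.10 ± 0.05 (adjusted p = 0.131). Ddx20, the Gemin3 subunit of the SMN complex that assembles spliceosomal particles, fell with let-7c (-0.14 ± 0.05, adjusted p = 0.0369). Ddx46, related to yeast Prp5, differed by -0.13 with let-7c (adjusted p = 0.0533; 0.031 with the replicate block). Ddx23, Dhx16 and Dhx38, other helicases that drive rearrangements of the spliceosome, differed from mock by 0.04, -0.02 and -0.04 with let-7c. With miR-294 they differed by 0.08, 0.09 and 0.11, and none of them passed. Ddx41 (-0.09 and -0.01), Ddx42 (-0.11 and -0.04) and Dhx35 (-0.11 and -0.04) did not pass with let-7c or miR-294 either.

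In mRNA export, 0 of 3 fell with let-7c (14.8% of all genes fell) and 2 of 3 rose with miR-294 (20.7% of all genes rose). Ddx19b, which removes export factors from mRNA at the nuclear pore, measured 8.62, 8.65 and 8.74 with let-7c, 9.12, 9.02 and 9.00 with miR-294, and 8.97, 8.86 and 8.73 with mock, the widest spread of any tested member in mock (SD 0.12). It rose with miR-294 (0.20 ± 0.06, adjusted p = 0.0319), and with let-7c its difference was -0.18 ± 0.06 (adjusted p = 0.0553; 0.0487 with the replicate block). Ddx39a, an export helicase, measured 10.14, 10.19 and 10.21 with let-7c, 10.40, 10.44 and 10.43 with miR-294, and 10.23, 10.26 and 10.30 with mock. It rose with miR-294 (0.16 ± 0.04, adjusted p = 0.0114), while its close relative Ddx39b, an adaptor of the TREX export complex, differed by 0.09 ± 0.04 (adjusted p = 0.127). Probe sets of such related genes can share transcripts.

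Of the nuclear helicases Ddx1, Ddx5, Ddx17 and Dhx9, 0 passed against mock with either mimic; at an unadjusted p under 0.05, limma had Ddx1 and Dhx9 lower with let-7c and Ddx5 lower with miR-294. Ddx5 and Ddx17 are cofactors of the Microprocessor whose Dgcr8 subunit these cells lack. Ddx17 differed from mock by -0.08 with let-7c and by 0.06 with miR-294, and Ddx1, of a tRNA ligase complex, by -0.10 and -0.02. Ddx5 measured 12.17, 12.43 and 12.33 with let-7c, 12.24, 12.32 and 12.28 with miR-294, and 12.39, 12.50 and 12.42 with mock. Its miR-294 arrays lay below its mock arrays (-0.16 ± 0.06, adjusted p = 0.0744; 0.0222 with the replicate block), and its second probe set differed by -0.09 ± 0.04. Dhx9 measured 11.95, 12.14 and 12.07 with let-7c, 12.17, 12.25 and 12.28 with miR-294, and 12.15, 12.28 and 12.23 with mock. Its difference with let-7c was -0.17 ± 0.06 (adjusted p = 0.0576; 0.0143 with the replicate block).

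Of 4 helicases of translation and mRNA turnover, 2 fell with let-7c (50.0%, against 14.8% of all genes). With miR-294 1 fell (25.0%, a share near the 21.1% of all genes). Ddx3x, which helps ribosomes through structured leaders, had the largest fall of any member with miR-294. It measured 12.86, 13.00 and 12.90 with let-7c, 12.52, 12.53 and 12.57 with miR-294, and 12.92, 13.02 and 12.98 with mock. The miR-294 arrays lay below all others, and Ddx3x fell to 0.74 of its mock level (-0.43 ± 0.05, adjusted p = 4.51e-05), while with let-7c its difference was -0.05 ± 0.05 (95% interval -0.16 to 0.05). The second probe set for Ddx3x measured 11.71, 11.64 and 11.75 with miR-294, against 12.29, 12.39 and 12.33 with mock, and also fell (-0.64 ± 0.06, adjusted p = 1.48e-05).

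Dhx36, which unwinds G-quadruplexes, measured 10.35, 10.42 and 10.48 with let-7c, 10.65, 10.71 and 10.60 with miR-294, and 10.59, 10.66 and 10.58 with mock. It fell with let-7c (-0.19 ± 0.05, adjusted p = 0.0158) and differed by 0.04 ± 0.05 with miR-294. Dhx34, a factor of nonsense-mediated decay, also fell with let-7c (-0.15 ± 0.04, adjusted p = 0.0217). Dhx29, which helps scanning ribosomes, did not pass with let-7c (-0.09) or miR-294 (0.04).

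Of the mitochondrial helicases 1 of 2 fell with let-7c (14.8% of all genes fell), and the difference between them was not tested. Dhx30, of the mitochondrial RNA granules, measured 9.46, 9.42 and 9.49 with let-7c, 9.72, 9.76 and 9.71 with miR-294, and 9.75, 9.80 and 9.72 with mock. It fell with let-7c (-0.31 ± 0.04, adjusted p = 0.000476) and differed by -0.03 ± 0.04 with miR-294. Ddx28, an assembly factor of the mitochondrial ribosome, measured 7.43, 7.28 and 7.26 with let-7c, 7.48, 7.50 and 7.42 with miR-294, and 7.40, 7.35 and 7.35 with mock, and passed against mock with neither mimic.

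Of the germ line helicases, Ddx4, the mouse Vasa gene, measured 9.11, 9.29 and 9.30 with let-7c, 9.37, 9.22 and 9.43 with miR-294, and 9.19, 9.15 and 9.29 with mock, in groups that overlapped throughout. Ddx43 measured 7.98, 8.22 and 8.18 with let-7c, 8.24, 8.28 and 8.22 with miR-294, and 8.03, 8.20 and 8.13 with mock; both genes missed the threshold with either mimic. Ddx25, a testis helicase gene, was left out as dim, at 6.43, 6.49 and 6.54 with let-7c, 6.50, 6.39 and 6.74 with miR-294, and 6.28, 6.28 and 6.40 with mock, where the 40th percentile of an array lay at 6.84 to 6.90. The interferon-inducible Ddx60 was the other dim member, at 6.53, 6.08 and 6.39 with let-7c, 5.79, 5.61 and 5.83 with miR-294, and 6.43, 6.36 and 6.35 with mock.

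Ddx11, a DNA helicase of chromosome cohesion, measured 9.03, 9.02 and 9.10 with let-7c, 9.30, 9.41 and 9.33 with miR-294, and 9.25, 9.24 and 9.23 with mock. It fell with let-7c (-0.19 ± 0.05, adjusted p = 0.011), and its difference with miR-294 was 0.11 ± 0.05 (adjusted p = 0.0818). Dhx40 measured 10.02, 10.09 and 9.99 with let-7c, 9.77, 9.71 and 9.63 with miR-294, and 10.08, 10.20 and 10.06 with mock. The miR-294 arrays lay below all others, and Dhx40 fell to 0.75 of its mock level with miR-294 (-0.41 ± 0.06, adjusted p = 0.000153). Dhx57 measured 9.15, 9.08 and 9.01 with let-7c, 9.16, 9.07 and 9.15 with miR-294, and 9.23, 9.30 and 9.30 with mock. It fell with let-7c (-0.19 ± 0.05, adjusted p = 0.014) and with miR-294 (-0.15 ± 0.05, adjusted p = 0.032). Ddx59 differed by 0.00 with let-7c and by 0.04 with miR-294, and Dhx32 by 0.05 and -0.09, without passing.

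Several smaller calls missed the threshold when 1 array was left out, with differences of the same sign. In let-7c against mock the count of 17 falls became 10 without mock replicate 2. The calls that ended without 1 array were those of Ddx20 (any let-7c replicate, or mock replicate 2 or 3; adjusted p 0.0618 to 0.146), Ddx47 (let-7c replicate 1 or 2, or mock replicate 2; 0.0613 to 0.101) and Ddx51 (let-7c replicate 2 or 3, or mock replicate 2; 0.057 to 0.086). The same held for Dhx15 (let-7c replicate 1, or mock replicate 2 or 3; 0.0725 to 0.0778), Dhx33 (let-7c replicate 1 or mock replicate 2; 0.0675 to 0.0756) and Dhx34 (let-7c replicate 3, or mock replicate 1 or 3; 0.0538 to 0.0843). It held too for Dhx36 (let-7c replicate 1 or mock replicate 2; 0.054 to 0.0663) and Dhx57 (let-7c replicate 3, or mock replicate 2 or 3; 0.0511 to 0.0553). In these fits the differences lay between -0.20 and -0.11, against -0.23 to -0.14 with all arrays. Testing all genes also ended the calls of Ddx20 (0.0791), Ddx47 (0.0515) and Dhx34 (0.0515), and that of Ddx20 ended with quantile normalization (0.0724) and with only the let-7c and mock arrays fitted (0.0578). The other 9 let-7c falls passed under every other setting tried, apart from the second probe sets of Ddx54 and Ddx18: those of Dhx8, Ddx54, Ddx10, Ddx56, Dhx30, Ddx31, Ddx27, Ddx18 and Ddx11.

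In miR-294 against mock, the calls that ended without 1 array were those of Ddx19b (miR-294 replicate 1 or 2, or mock replicate 2 or 3; adjusted p 0.057 to 0.126) and Ddx49 (miR-294 replicate 1 or 2, or mock replicate 1 or 3; 0.0675 to 0.118). Those of Ddx55 (miR-294 replicate 2 or 3, or mock replicate 2 or 3; 0.0654 to 0.106) and Dhx57 (the same arrays; 0.0553 to 0.113) ended likewise, and that of Dhx57 also with quantile normalization (0.0964), with centring on the 75th percentile (0.0723) and with all genes tested (0.064). The difference of Ddx19b was 0.13 without mock replicate 3, against 0.20 with all arrays. Testing all genes also ended those of Ddx19b (0.0591), Ddx49 (0.0568) and Ddx55 (0.0581). The other 13 calls, among them Ddx27, Ddx54, Ddx56, Dhx8, Ddx3x, Dhx40 and Ddx52, passed under every setting tried.

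**Figure D3:**
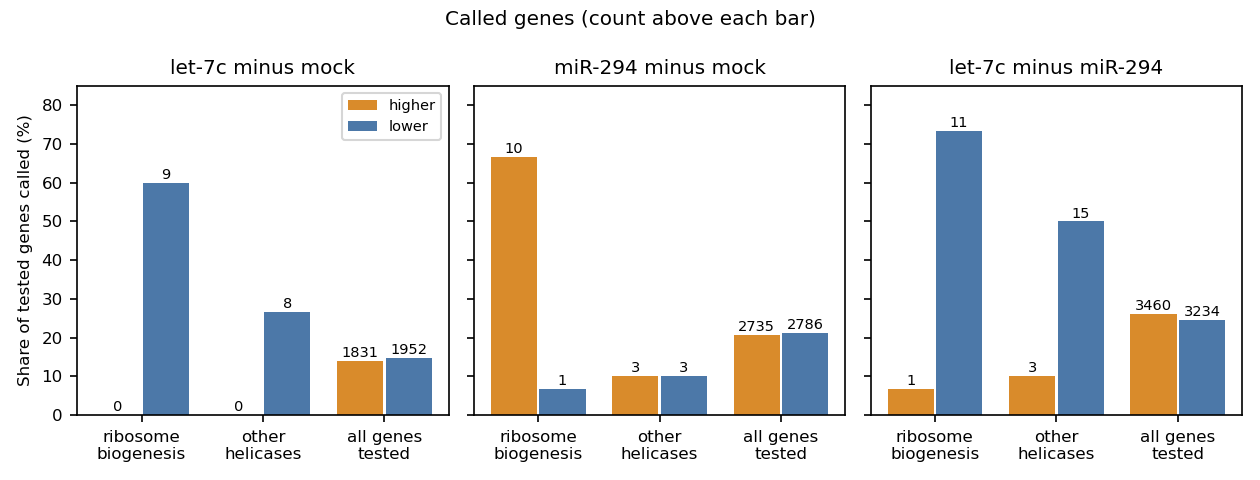
Share of tested genes called higher (orange) or lower (blue) in each comparison (vertical axis, percent), for the 15 ribosome biogenesis helicase genes, the 30 other tested helicase genes and all 13182 genes tested; the count stands above each bar. In miR-294 minus mock the ribosome biogenesis helicases have 10 higher and 1 lower, and the other helicases 3 and 3.

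Setting let-7c against miR-294 directly tests the difference between the mimics, with the mock arrays adding only to the estimate of the spread. Of 45 members, 26 were lower with let-7c than with miR-294 (57.8%, against 24.5% of all genes) and 4 were higher (8.89%, against 26.2% of all genes). The median was -0.15, against -0.01 over all genes tested. Dhx8 stood at 0.50 of its miR-294 level (95% interval of the log2 difference -1.10 to -0.90, adjusted p = 3.15e-08), Ddx54 at 0.60 (-0.74 ± 0.05, adjusted p = 5.09e-07), and Ddx27 (-0.61 ± 0.05), Ddx56 (-0.60 ± 0.05), Ddx10 (-0.55 ± 0.04) and Ddx31 (-0.53 ± 0.06) followed. In these 6 genes every let-7c array lay below every miR-294 array. They were picked for the largest falls in this comparison, so the lack of overlap is no separate support. Of the 15 ribosome biogenesis helicase genes 11 were lower with let-7c (73.3%; median -0.35) and 1, Ddx52, was higher. For Ddx54 the second probe set differed by -0.17 ± 0.07 (adjusted p = 0.059), and for Ddx18 by -0.38 ± 0.04 (adjusted p = 1.86e-05), where the brighter one gave -0.47.

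Above their miR-294 level with let-7c were Ddx3x (0.38 ± 0.05, adjusted p = 6.3e-05), Dhx40 (0.33 ± 0.06, adjusted p = 0.000447), Ddx52 (0.17 ± 0.06, adjusted p = 0.0263) and Dhx32 (0.14 ± 0.05, adjusted p = 0.0287). Dhx32 measured 9.70, 9.70 and 9.70 with let-7c and 9.59, 9.51 and 9.58 with miR-294, against 9.65, 9.72 and 9.58 with mock. For Dhx57 (-0.04, 95% interval -0.15 to 0.07) and Ddx5 (0.03, -0.11 to 0.17) the mimics differed by less than the error of the comparison.

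The calls of Ddx52 (let-7c replicate 2 or 3, or miR-294 replicate 1 or 3; adjusted p 0.064 to 0.104) and Dhx32 (any let-7c replicate, or miR-294 replicate 2; 0.0568 to 0.108) ended without 1 array. The count of 4 became 2 without let-7c replicate 2 or without let-7c replicate 3. On the lower side the small differences of Ddx17 (let-7c replicate 2 or miR-294 replicate 3; 0.0509 to 0.0604; 0.303 with quantile normalization), Ddx28 (every array except let-7c replicate 1 and miR-294 replicate 3; 0.058 to 0.16) and Dhx29 (every array except let-7c replicate 3; 0.0534 to 0.135) ended too. So did those of Dhx38 (let-7c replicate 1, or miR-294 replicate 2 or 3; 0.0615 to 0.0959) and Dhx9 (the same arrays; 0.0628 to 0.0825). With all genes tested the calls of Ddx28 (0.0869), Dhx29 (0.0824), Ddx52 (0.052), Dhx32 (0.0596) and Dhx38 (0.0538) ended, and with only the let-7c and miR-294 arrays fitted those of Ddx28 (0.0805) and Dhx29 (0.0765); Ddx28 also missed with a trended prior (0.099).

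**Figure D4:**
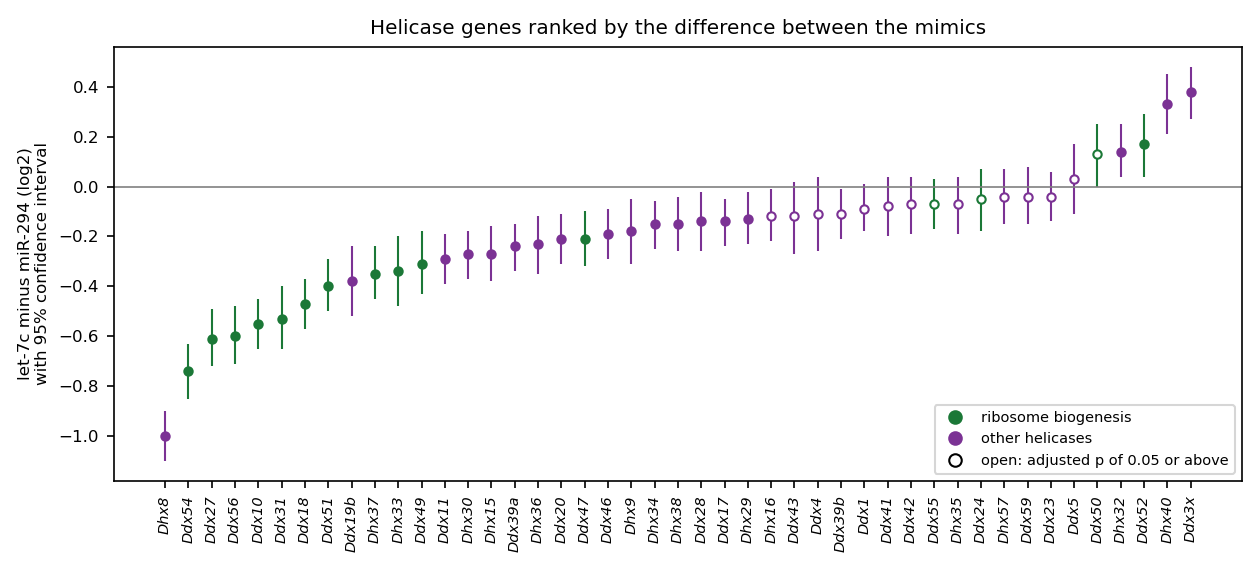
Difference let-7c minus miR-294 (vertical axis, log2) with 95% confidence intervals for the 45 tested helicase genes in rank order along the horizontal axis; green marks ribosome biogenesis, purple the other roles, and filled points have an adjusted p under 0.05. Dhx8 and Ddx54 (-0.74) stand at the low end, Dhx40 (0.33) and Ddx3x (0.38) at the high end.

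Many of these enzymes need partner proteins, such as G-patch proteins that switch on DEAH box helicases, so partners and RNA helicases with other names were followed as well. Among 16 tested RNA helicase genes with other names, 5 fell (31.2%, against 14.8% of all genes) and 0 rose with let-7c. With miR-294 4 rose and 4 fell (25.0% each), shares near the 20.7% and 21.1% of all genes. Of these Znfx1, an antiviral helicase gene, measured 8.20, 8.30 and 8.17 with miR-294, against 9.55, 9.43 and 9.37 with mock, and fell by 1.22 (adjusted p = 1.97e-07). Ythdc2, a meiotic helicase gene, fell by 0.26 with miR-294 and Upf1, of nonsense-mediated decay, rose by 0.24, while Eif4a3, of the exon junction complex, fell by 0.24 with let-7c (adjusted p = 0.0411).

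Of 16 tested G-patch genes, 5 fell (31.2%, against 14.8% of all genes) and 0 rose with let-7c. With miR-294 7 rose (43.8%, against 20.7%) and 3 fell (18.8%, against 21.1%, a share near that of all genes). Gpkow, whose protein binds the splicing helicase Dhx16, measured 8.87, 9.10 and 8.85 with miR-294, far below the 10.06, 10.06 and 10.15 with mock. With let-7c it measured 10.26, 10.14 and 10.16, which overlapped mock. It fell by 1.15 with miR-294 (SE 0.07, adjusted p = 3.91e-07), where Dhx16 itself differed by 0.09 (adjusted p = 0.135). Gpatch11 fell by 0.43 and Gpatch4 rose by 0.44 with miR-294, and Gpatch3 fell by 0.39 with let-7c.

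Of 26 other tested partners, 16 fell (61.5%, against 14.8% of all genes) and 0 rose with let-7c, with a median of -0.19, against 0.02 over all genes. With miR-294 9 rose (34.6%, against 20.7%) and 2 fell (7.69%, against 21.1%), with a median of 0.07, against 0.02. Gemin4, the partner of Ddx20 in the SMN complex, measured 9.18, 9.18 and 9.24 with let-7c, against 9.71, 9.81 and 9.71 with mock, and fell by 0.54 (SE 0.05, adjusted p = 2.38e-05). The nucleolar genes Nol8 (-0.48 with let-7c), Rcl1 (0.53 with miR-294) and Rrs1 (0.48 with miR-294) were the others named in this list.

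Promoter sequences were available from RefSeq (GRCm38.p6; 250 bases before to 50 after the annotated start) for 43 of the 47 helicase genes. They were searched on both strands for 6 motifs, none of which contains another: the E-box CACGTG, the ETS core CCGGAAG, the YY1 core AAGATGG, the NRF1 core CGCATGCG, the CCAAT box CCAAT and the TATA box TATAAA. The ETS letters stood in 19 of the 43 helicase genes (44.2%), against 18.6% of 10406 tested genes and 9.93% of all 27025 genes with such a sequence. The E-box, the site of Myc proteins, stood in 7 (16.3%, against 11.7% of tested and 8.09% of all genes), and in 1 of the 15 ribosome biogenesis genes, Dhx33. CCAAT stood in 23 (53.5%, against 42.2% and 41.1%), TATAAA in 5 (11.6%, against 8.78% and 15.7%), AAGATGG in 2 (4.65%, against 8.14% and 7.28%) and CGCATGCG in 3 (6.98%, against 4.11% and 2.07%).

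Printed are the promoters of Dhx8 and Ddx54, the members that set the mimics farthest apart, of Ddx27, which rose most with miR-294, and of Ddx3x, which fell most with it. Capitals mark any of the 6 motifs.
Dhx8, chr11:101732706-101733005, plus strand: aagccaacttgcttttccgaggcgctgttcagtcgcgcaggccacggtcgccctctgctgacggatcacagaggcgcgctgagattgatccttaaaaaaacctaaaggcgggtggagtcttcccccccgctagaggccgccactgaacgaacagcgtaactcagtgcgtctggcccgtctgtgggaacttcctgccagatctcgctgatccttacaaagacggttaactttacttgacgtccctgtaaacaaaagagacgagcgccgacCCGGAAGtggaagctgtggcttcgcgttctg
Ddx54, chr5:120612880-120613179, plus strand: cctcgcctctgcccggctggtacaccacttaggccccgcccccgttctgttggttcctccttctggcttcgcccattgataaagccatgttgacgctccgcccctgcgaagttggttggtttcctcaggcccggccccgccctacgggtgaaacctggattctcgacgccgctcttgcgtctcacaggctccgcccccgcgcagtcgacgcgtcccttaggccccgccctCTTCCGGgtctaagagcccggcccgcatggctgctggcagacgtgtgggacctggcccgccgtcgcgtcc
Ddx27, chr2:167015063-167015362, plus strand: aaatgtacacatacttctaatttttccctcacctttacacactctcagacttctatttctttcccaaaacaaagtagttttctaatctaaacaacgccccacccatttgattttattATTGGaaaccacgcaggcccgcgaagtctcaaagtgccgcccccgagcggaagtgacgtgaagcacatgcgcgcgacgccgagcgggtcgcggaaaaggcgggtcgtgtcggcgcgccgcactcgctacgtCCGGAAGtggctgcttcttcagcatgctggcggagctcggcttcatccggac
Ddx3x, chrX:13280772-13281071, plus strand: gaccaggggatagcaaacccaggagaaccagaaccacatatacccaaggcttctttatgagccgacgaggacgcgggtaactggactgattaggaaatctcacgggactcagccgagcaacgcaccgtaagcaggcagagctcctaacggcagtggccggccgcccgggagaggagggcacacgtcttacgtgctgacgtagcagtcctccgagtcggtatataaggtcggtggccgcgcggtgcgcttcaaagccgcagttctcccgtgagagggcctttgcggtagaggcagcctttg
The ETS letters begin 20 bases into the Dhx8 transcript, at position -20 in Ddx54 and at position -2 in Ddx27, which also holds a CCAAT box at -133; a match on the other strand appears as its reverse complement. None of the 6 motifs stood letter for letter in this Ddx3x window, which does hold tatataag, a near match to the TATA box letters. A match is a run of letters and no evidence of binding.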

How the data were processed

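Transcripts were measured on 9 one-colour arrays, 3 biological replicates per group per the labels. The deposited values are log2 intensities that the authors made with GCRMA, per the submitters' processing notes; the scale is read from the values, since no header states it. GCRMA in its usual form adjusts background by probe sequence and normalizes quantiles between arrays, which removes overall shifts; its settings here are not stated. Array medians were 7.36 to 7.41 and the lowest correlation between arrays of a group was 0.995. Of 35557 probe sets, 21789 carried 1 gene symbol, 1621 several and 12147 none in the platform annotation. The number of arrays limits the precision.

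Each gene was represented by its probe set with the highest mean. limma 3.58.1 in R 4.3.3 (lmFit and eBayes, 2-sided) was fitted to all 9 arrays and the 13182 tested genes, and was tested on simulated data. Same-numbered arrays deviated together: correlations were 0.418, 0.301 and 0.133 between let-7c and mock and 0.363, 0.272 and 0.283 between miR-294 and mock. The numbers were therefore taken to pair these arrays, though let-7c replicate 3 correlated similarly with mock replicate 2 (0.149). Between let-7c and miR-294 the correlations of same-numbered arrays were 0.215, 0.248 and 0.0285. The blocked value is given where it changes a call. Named genes were up to 6 called members with the largest differences in each direction of each comparison and the 2 largest per role. Arrays without overlap in genes picked by size are a description and no support beyond the test. The helicases, roles, partner lists and marker lists were chosen with earlier results of these data known. Alternatives were leaving out each array, the replicate block, no filter or a stricter one, other scalings, a trended prior, a fit of only the groups compared, the mean of probe sets and the second probe set.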

Additional observations from a re-analysis of the deposited data

How the results depend on the processing

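Without each array in turn, helicase genes lower with let-7c than mock numbered 10 to 17, the 10 without mock replicate 2 (14 to 22 under the other alternatives), and those higher with let-7c than miR-294 numbered 2 to 4, the 2 without let-7c replicate 2 or 3 (3 to 5 under the others). The ribosome biogenesis helicases lower with let-7c than mock numbered 6 to 10, and the other helicases 4 to 8, without 1 array. Those higher with miR-294 than mock numbered 8 to 10 for ribosome biogenesis in every alternative run, and 2 to 6 for the other helicases, the 6 with centring on the 75th percentile. With the replicate block, which respects the pairing with mock, 21 were lower with let-7c and 13 higher and 5 lower with miR-294; let-7c against miR-294 gave 28 lower and 4 higher. Calls against mock that the block added are given beside the results. Between the mimics it added Ddx39b (adjusted p = 0.0328) and Dhx16 (0.0273). There same-numbered arrays correlated at 0.215 and 0.248 for replicates 1 and 2, but at only 0.0285 for replicate 3. The block ended no call. Shares of all genes called are given for the main fit only, so changes in these counts need not be particular to the helicases. The second probe set of Ddx54, an alternative chosen after the data were seen, turned its let-7c difference to 0.05 (adjusted p = 0.622), and the cause was not tested. Of the members' differences under the alternatives listed in the methods, the second probe set left out, 2153 kept their call, 91 lost and 48 gained one, and none that was called changed sign. Scalings moved the median of all genes to 0.05 at most. Dim signal limits what can be said of Ddx25 and Ddx60.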
